A study of Homo sapiens with 6 samples.

Results

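The SLC39 genes encode the ZIP proteins, membrane transporters that carry zinc into the cytoplasm from outside the cell or from inside organelles. Of these, 10 were followed in OCI-AML5, an established human acute myeloid leukemia line: SLC39A1, SLC39A3, SLC39A4, SLC39A6, SLC39A7, SLC39A8, SLC39A9, SLC39A10, SLC39A11 and SLC39A14. They were chosen by symbol, out of 60609 genes listed in each file. RNA was sequenced from 3 libraries of cells kept for 24 hours in DMSO, the solvent, and from 3 libraries of cells kept for 24 hours in 1 μM S767, a small molecule that the study examined for its effect on metals in leukemia cells. All 6 libraries came from this single line, grown with the cytokine GM-CSF, and neither the labels nor the methods say whether the replicates of a group were separate cultures, so that p-values measure the spread between these libraries only. The comparison asks whether the genes for zinc import changed in level after S767.

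ZIP proteins work against the SLC30 proteins, also called ZnT, which move zinc out of the cytoplasm. Free zinc is buffered by metallothioneins, small cysteine-rich proteins. The zinc-sensing transcription factor MTF1 binds metal response elements in promoters and switches on metallothionein genes and SLC30A1, the exporter of the plasma membrane, when zinc rises. In mouse and zebrafish cells MTF1 is also known to hold down SLC39A10. Most of the measured genes (SLC39A4, SLC39A6, SLC39A7, SLC39A8, SLC39A10 and SLC39A14) belong to the LIV-1 branch of the family, SLC39A1 and SLC39A3 to the ZIPII branch, SLC39A9 to the ZIPI branch and SLC39A11 to the gufA branch. ZIP8 and ZIP14, the products of SLC39A8 and SLC39A14, carry iron and manganese as well as zinc.

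The promoters of SLC39A10, the gene with the lowest p-value of the family, and of MT2A, a metallothionein gene that MTF1 drives, are shown because MTF1 is known to act on both genes in other cells. Each window runs from 250 bases before to 50 bases after a RefSeq start site on GRCh38.p14, forward strand, and is 300 bases long. Capitals mark matches to the core of the metal response element, searched as TGCACNC and TGCGCNC on both strands.

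SLC39A10, chr2:195656708-195657007: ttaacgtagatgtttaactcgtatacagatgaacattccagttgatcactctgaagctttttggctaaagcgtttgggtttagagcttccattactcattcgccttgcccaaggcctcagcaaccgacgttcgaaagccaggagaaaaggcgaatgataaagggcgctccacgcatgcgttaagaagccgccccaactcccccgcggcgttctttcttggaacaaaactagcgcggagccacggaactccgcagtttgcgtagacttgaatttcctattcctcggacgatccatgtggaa
SLC39A10, chr2:195656976-195657275: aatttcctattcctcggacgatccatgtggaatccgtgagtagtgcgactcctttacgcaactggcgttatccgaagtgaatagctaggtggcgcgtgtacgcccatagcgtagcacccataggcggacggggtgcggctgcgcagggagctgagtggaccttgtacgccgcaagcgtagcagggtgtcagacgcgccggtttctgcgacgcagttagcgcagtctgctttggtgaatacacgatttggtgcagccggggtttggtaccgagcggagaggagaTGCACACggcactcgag
MT2A, chr16:56608334-56608633: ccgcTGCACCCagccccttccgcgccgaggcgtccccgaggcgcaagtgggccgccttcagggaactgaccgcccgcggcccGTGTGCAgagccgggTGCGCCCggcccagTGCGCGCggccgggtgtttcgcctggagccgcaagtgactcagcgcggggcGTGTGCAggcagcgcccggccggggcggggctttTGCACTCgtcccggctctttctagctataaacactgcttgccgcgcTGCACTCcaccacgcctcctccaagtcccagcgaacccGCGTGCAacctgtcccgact

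The first SLC39A10 window held no match and the second, which overlaps it, held 1, starting at base 34 of the transcript. The MT2A window held 8. The window of SLC30A1, which MTF1 also drives and which is not shown, held 2. Single matches also lay in a window each of SLC39A1, SLC39A3, SLC39A6 and SLC39A8. Windows were given for 8 of the 10 SLC39 genes, 13 windows in all, and 5 of the 13 held at least 1 match, beside 29.6% of the 35116 promoter windows of all genes. Only 0.0199% of all windows held 8 or more. A match describes letters in this window and not a bound site.

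All 10 SLC39 genes were expressed, and all 10 passed the filter on low counts. Levels between genes were compared in TPM, which RSEM corrects for transcript length. In DMSO the mean TPM was 85.0 ± 0.480 (SD, n = 3) for SLC39A3, 83.3 ± 2.58 for SLC39A14 and 76.5 ± 3.97 for SLC39A7, and the ranges of SLC39A3 and SLC39A14, and of SLC39A14 and SLC39A7, overlapped. SLC39A4 followed at 56.8 ± 4.48 TPM, apart from its neighbors on both sides. SLC39A1 at 36.0 ± 2.26 and SLC39A8 at 35.8 ± 2.43 TPM overlapped, as did SLC39A9 at 31.0 ± 1.03 and SLC39A6 at 30.6 ± 0.531. SLC39A11 at 24.9 ± 1.201 and SLC39A10 at 21.0 ± 0.867 TPM came last and did not overlap. SLC39A3 stood at percentile 91.8 and SLC39A10 at percentile 72.3 of the 20725 genes tested. In S767 the order changed only between overlapping neighbors, SLC39A8 with SLC39A1 and SLC39A6 with SLC39A9.

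**Figure D1:**
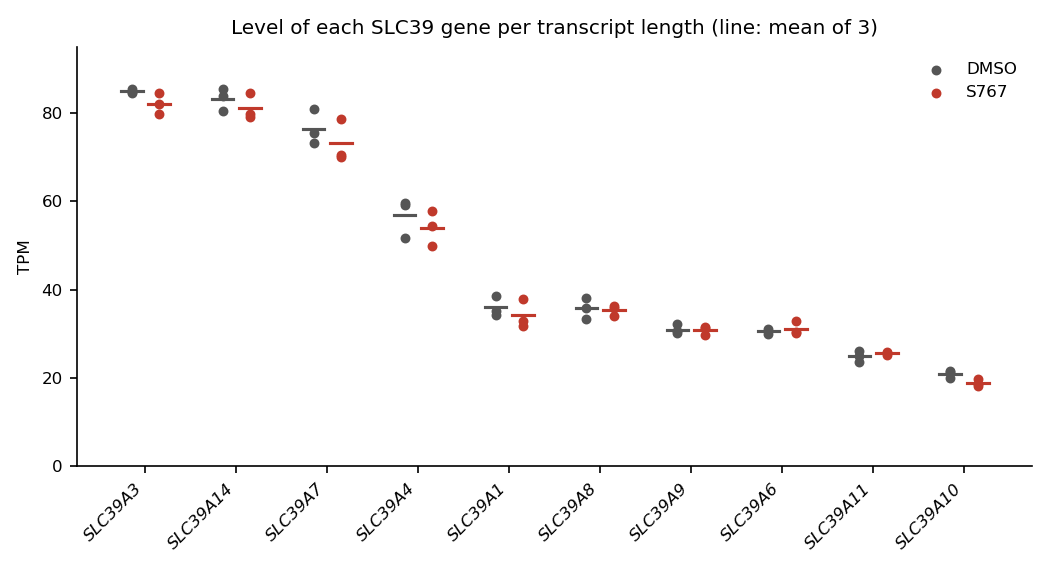
TPM of the 10 SLC39 genes, ordered by their mean in DMSO, with 1 point per library (grey DMSO, red S767) and a line at the mean of 3. SLC39A3, SLC39A14, SLC39A7 and SLC39A4 stand above 49 TPM in all 6 libraries and the other genes below 39, and the points of both treatments lie close together for each gene.

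The place of SLC39A4 in this order depends on its transcript length. ZIP4, its product, is the importer of dietary zinc in the intestine. RSEM gave its transcripts a mean length, weighted by abundance, of 680 to 701 bases, the shortest of the 10 genes. The gene has 5033 exon bases. Whether transcripts this short encode the whole of ZIP4 was not tested, so the TPM of SLC39A4 is not read as a level of importer mRNA. SLC39A4 had only 19.6 to 23.4 CPM (counts scaled to library size, not to length) against 274 to 286 CPM for SLC39A14. The summed level of the 10 genes was 488, 476 and 479 TPM in the DMSO libraries and 481, 462 and 457 TPM in the S767 libraries, in the order of replicates 1, 2 and 3, and the groups overlapped. The 10 SLC30 genes summed to 97.6, 97.2 and 95.9 TPM in DMSO and to 101.5, 96.2 and 96.4 TPM in S767, also overlapping. The ratio of the SLC39 sum to the SLC30 sum was 4.998, 4.90 and 4.99 in DMSO and 4.74, 4.80 and 4.74 in S767. This ratio was lower in every S767 library than in any DMSO library, but no share over other pairs of gene sums was computed. The SLC39 sum leaves out SLC39A13, at 17.1 to 20.9 TPM, and the SLC30 sum counts SLC30A9, a mitochondrial exporter. SLC39A4, with its short transcripts, made up a mean of 11.8% of the SLC39 sum in DMSO and 11.6% in S767. The ratio is given as a description without a test, and no shift in zinc transport is read from it.

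For SLC39A1 the level depended on the counting method. ZIP1 is a widely expressed zinc importer of the plasma membrane. Its gene (ENSG00000143570.18) lies on chromosome 1 from 153959099 to 153968184, reverse strand. STAR assigned 354, 306 and 461 fragments to it in DMSO and 403, 309 and 327 in S767, whereas RSEM estimated 12028, 7613 and 12668 in DMSO and 12670, 8807 and 9159 in S767. The RSEM estimate was 24.9 to 34.0 times the STAR count. Over the 10663 genes with a mean expected count above 1000, the median ratio was 0.958 and the ratio passed 10 for 3.04% of genes. In GENCODE 29 a second protein coding gene, AL358472.7, lies over SLC39A1 on the same strand, from 153959151 to 153975887. Exons on that strand shared by another gene cover 2061 of the 3388 exon bases of SLC39A1, or 60.8%. The overlapping gene received 0 STAR fragments and 0 to 27.5 RSEM fragments in every library. STAR's gene counting sets aside fragments that fall on more than 1 gene of a strand. How much of the gap this accounts for was not tested. Counted per kilobase from STAR, SLC39A1 fell from rank 5 to rank 10 of the 10 genes in DMSO, at 0.975 CPM per kilobase.

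SLC39A3, which encodes ZIP3, another importer of the plasma membrane, showed the same kind of gap on a smaller scale. Its gene (ENSG00000141873.11, chromosome 19, 2732204 to 2740152, reverse strand) shares 9.58% of its exon bases with AC006538.2 on the same strand, and its RSEM estimate was 1.45 to 1.49 times the STAR count. For the other 8 genes the ratio lay between 0.878 and 0.989. SLC39A9 shares 373 exon bases with ERH on the opposite strand, and 27.8 to 30.8% of the fragments on SLC39A9 were on the forward strand, against 6.44 to 6.58% over all genes. The share was higher for SLC39A1, at 43.2 to 48.6%, from 233 to 419 forward fragments per library. This share is taken over STAR counts, and the reverse-strand STAR count of SLC39A1 was only 306 to 461. RSEM estimated 7613 to 12670 fragments for the gene, so the share is not read as transcription from the opposite strand. SLC39A1 shares 280 exon bases with genes on the opposite strand. Forward fragments are not in the reverse-strand counts used here. In forward-strand CPM, only SLC39A11 of the 10 genes was higher in S767 without overlap, from 24 to 39 fragments per library that overlapped before scaling, as was seen for 2.08% of all genes with enough forward fragments.

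Differences between S767 and DMSO were small for all 10 SLC39 genes. Of the 10, 1 had a P value under 0.05 in edgeR's quasi-likelihood test, beside 3.53% of the 20725 genes tested, and 0 passed an adjusted p of 0.05, beside 0.00483% of genes. Both limma-voom and DESeq2 also called 0 of the 10 after adjustment and 1 before it. Log2 fold changes of S767 against DMSO ranged from -0.12 for SLC39A10 to 0.10 for SLC39A11, with 6 below 0 and 4 above. Their median was -0.014, beside -0.00024 for all genes, and the median of their sizes was 0.038, beside 0.070 for all genes. Standard errors were 0.035 to 0.12 for the 10 genes and 0.032 to 1.09 over all genes. In DMSO the 10 genes stood at percentiles 72.3 to 91.8 of level, so the medians of size are not compared at like level or precision. No SLC39 difference came near 0.4 in size, the limit that the study used for up-regulated genes. That limit, in either direction and together with a P value under 0.05, was passed by 1.23% of genes.

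Libraries with the same replicate number deviated together, and with that number as a block in the model standard errors shrank to 0.023 to 0.092. In that blocked fit 3 of the 10 genes had a P value under 0.05 (SLC39A7, SLC39A10 and SLC39A11), beside 16.8% of all genes, and 1 had an adjusted p under 0.05 (SLC39A10), beside 3.23%. All 3 pairs were lower in S767 for 2 genes and higher for 3, beside 17.8% and 19.9% of all genes.

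SLC39A10 was the gene whose level in S767 lay outside that in DMSO. ZIP10, its product, imports zinc across the plasma membrane and is known in B lymphocytes for keeping early cells alive. The gene (ENSG00000196950.14) lies on chromosome 2 from 195575977 to 195737702, forward strand. It had 64.0, 67.0 and 66.5 CPM in the DMSO libraries and 61.4, 59.0 and 61.0 CPM in the S767 libraries. Every S767 library was below every DMSO library, which held for 1 of the 10 genes. Groups did not overlap for 9.21% of all genes, and were lower in S767 for 4.08%. The difference was -0.12 ± 0.039 on the log2 scale (SE), a change in level of -8.16% with a 95% interval from -13.7 to -2.31%. It had a P value of 0.0126 and an adjusted p of 1.00 in edgeR's quasi-likelihood test, so it did not pass correction over all genes. The exact permutation test of log2 CPM gave p = 0.1 (two-sided), the smallest that 3 libraries against 3 allow.

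Within pairs SLC39A10 differed by -0.06, -0.18 and -0.12 on the log2 scale, lower in 3 of 3. With the replicate block the edgeR difference was -0.12 ± 0.028, with a P value of 0.000798 and an adjusted p of 0.0342, and SLC39A10 fell by this test. An adjusted p under 0.05 with a lower level in S767 was seen for 1.08% of all genes. RSEM estimates gave -0.13 ± 0.038 without the block (edgeR P value 0.00892), but with the block the adjusted p from RSEM estimates lay just above 0.05. The call also turned on single libraries. Without DMSO replicate 2 the unblocked P value was 0.0510, and without pair 2 the blocked adjusted p was 0.486, both in edgeR. Over 23 alternatives the adjusted p ranged from 4.90e-05 to 1.00. The lowest came from the blocked edgeR fit without pair 1, which held only 2 pairs and is not read as a firmer call. No other gene overlaps SLC39A10 on its strand, and its weighted transcript length was 3735 to 3915 bases in DMSO and 3819 to 3873 bases in S767.

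SLC39A11 leaned the other way. ZIP11 is an importer found on Golgi and nuclear membranes as well as at the cell surface, and its gene (ENSG00000133195.11) spans 446764 bases of chromosome 17, from 72645949 to 73092712, reverse strand. It had 36.0, 41.1 and 37.2 CPM in DMSO and 39.0, 42.3 and 41.3 CPM in S767. The groups overlapped, but each S767 library was above the DMSO library of the same number, by 0.11, 0.04 and 0.15 on the log2 scale. The difference of 0.10 ± 0.060 (edgeR P value 0.124) became 0.10 ± 0.029 with the replicate block, with a P value of 0.00377 and an adjusted p of 0.0777. In TPM pair 2 went the other way, with 26.1 in DMSO and 25.1 in S767, and the difference on log2(TPM + 1) was 0.037 (limma P value 0.402). Leaving out single libraries moved the unblocked difference between 0.064 (without DMSO replicate 1) and 0.16 (without DMSO replicate 2).

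SLC39A7 encodes ZIP7, which releases zinc from the endoplasmic reticulum and Golgi. The gene (ENSG00000112473.18, chromosome 6, 33200445 to 33204439, forward strand) had 107.5, 100.1 and 100.5 CPM in DMSO and 103.1, 99.2 and 94.7 CPM in S767. The groups overlapped, and S767 was lower in 3 of 3 pairs. The log2 difference was -0.05 ± 0.046 (edgeR P value 0.283), and with the block it was -0.05 ± 0.024, with a P value of 0.0449 and an adjusted p of 0.282. It passed the unadjusted limit only in blocked fits that kept all 3 pairs. With pair 1, 2 or 3 left out the blocked edgeR P value was 0.0504, 0.0516 and 0.252.

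**Figure D2:**
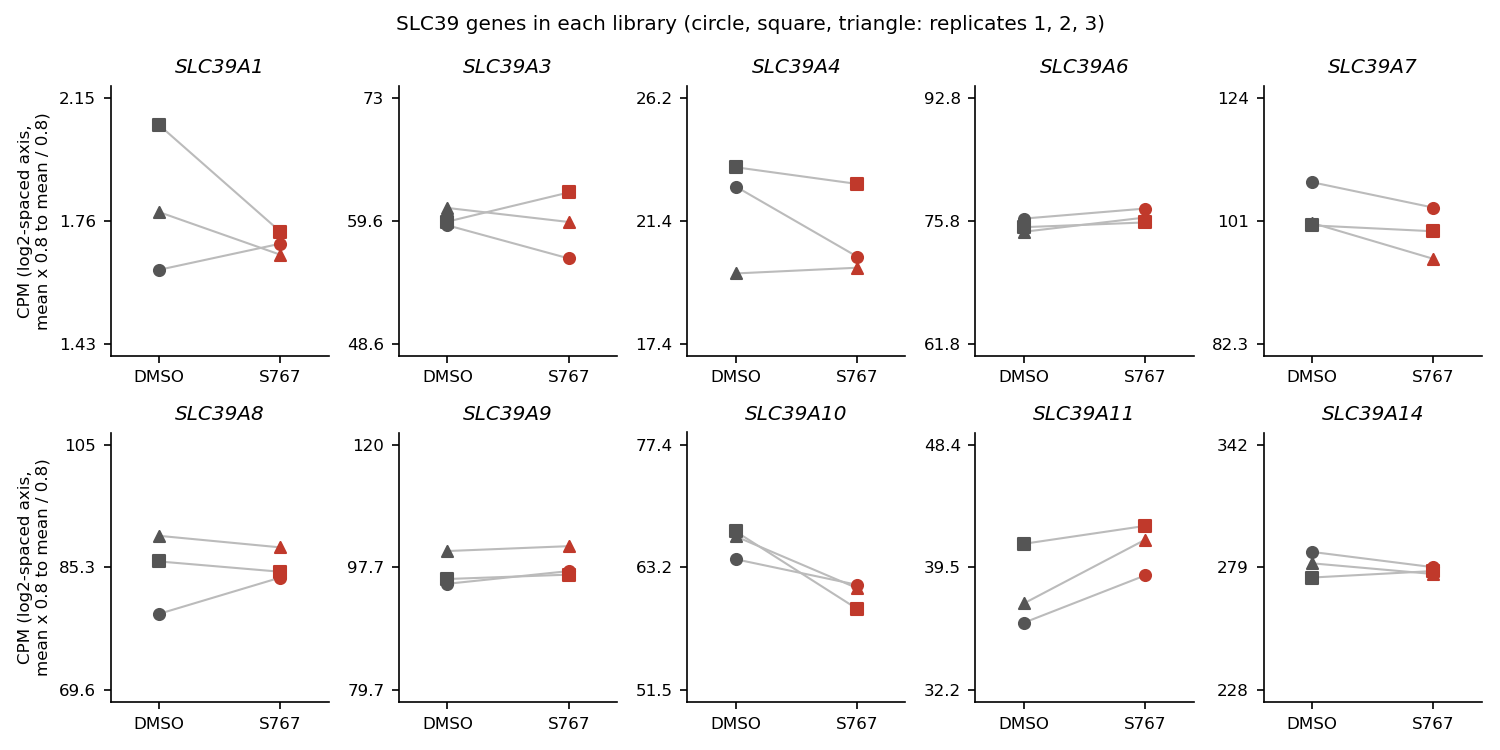
CPM of each SLC39 gene in DMSO (grey) and S767 (red), with libraries of the same replicate number joined and each log-spaced vertical axis covering the same fold range around the gene's mean. The SLC39A10 groups are apart, all 3 lines rise for SLC39A11, SLC39A6 and SLC39A9, all 3 fall for SLC39A7, and the groups of all genes but SLC39A10 overlap.

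The other LIV-1 genes differed by no more than 0.07 on the log2 scale. SLC39A4 (ENSG00000147804.9, chromosome 8, 144409742 to 144416895, reverse strand) had a log2 difference of -0.07, with a 95% interval from -0.25 to 0.12. SLC39A6 (ENSG00000141424.13, chromosome 18, 36108532 to 36129385, reverse strand) encodes ZIP6, known for its part in the oocyte and in breast cancer cells that respond to estrogen, and ranged from 74.4 to 77.3 CPM over the 6 libraries. Its difference was 0.02, with an interval from -0.06 to 0.10, and all 3 pairs were slightly higher in S767. SLC39A8 (ENSG00000138821.13, chromosome 4, 102251041 to 102431258, reverse strand) ranged from 79.0 to 89.9 CPM and differed by 0.01, from -0.11 to 0.13. SLC39A14 (ENSG00000104635.14, chromosome 8, 22367249 to 22434129, forward strand), which had the most fragments of the family at 40796 to 72660 per library, ranged from 274 to 286 CPM and differed by -0.02, from -0.09 to 0.06. For these 4 genes the intervals leave out a change of 0.4 in either direction.

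The genes of the remaining branches also overlapped between groups in CPM. SLC39A9 (ENSG00000029364.12, chromosome 14, 69398015 to 69462388, forward strand), whose product ZIP9 is also known as a membrane receptor for androgen, had 95.1 to 100.4 CPM in DMSO and 96.6 to 101.2 CPM in S767. Its log2 difference was 0.02, with a 95% interval from -0.07 to 0.11. SLC39A3 had 59.2, 59.6 and 60.9 CPM in DMSO and 56.0, 62.5 and 59.5 CPM in S767, so that the S767 libraries spanned a wider range on both sides. Its log2 difference was -0.01, from -0.12 to 0.10, in counts. In TPM, where its fragments shared with the overlapping gene are included, it had 84.8, 84.7 and 85.6 in DMSO and 79.9, 84.5 and 82.0 in S767, and the groups did not overlap. That held in TPM for 2 of the 10 genes, SLC39A3 and SLC39A10, both lower, beside 7.86% of all genes in either direction and 4.55% lower. In RSEM expected counts, which include the same shared fragments, SLC39A3 differed by -0.033 (edgeR P value 0.453). On log2(TPM + 1) it differed by -0.049 (limma P value 0.0976). SLC39A1 had the least precise difference, -0.10 in STAR counts with an interval from -0.38 to 0.18. The RSEM estimates gave -0.06, from -0.21 to 0.08, without the block, and with the block a P value of 0.0221 and an adjusted p of 0.193 in edgeR.

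**Figure D3:**
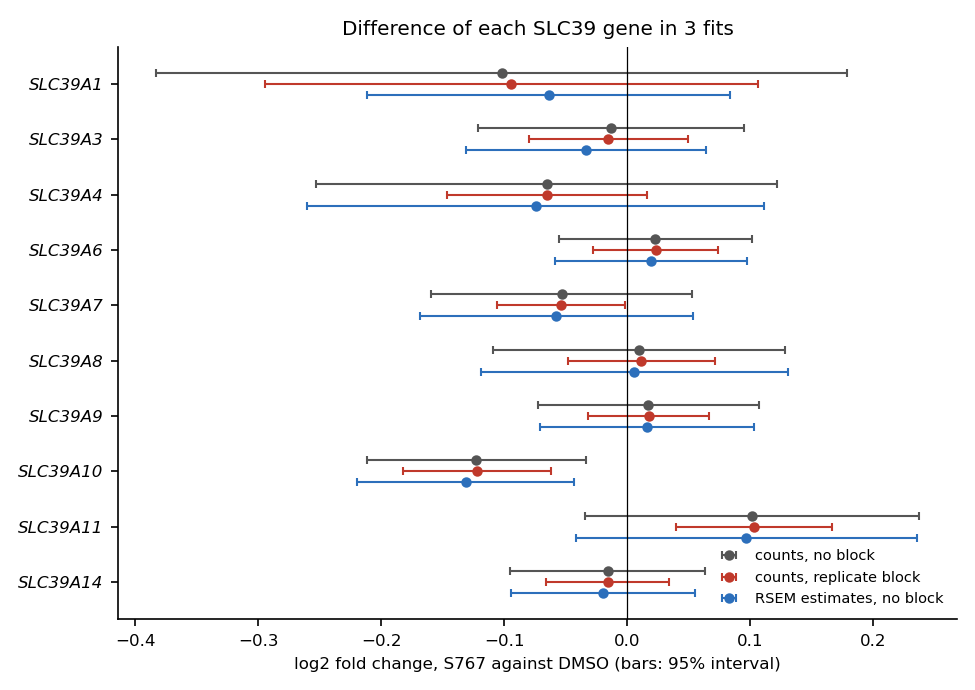
Log2 fold change of S767 against DMSO for each SLC39 gene with its 95% interval, from counts without a block (grey), counts with the replicate block (red) and RSEM estimates without a block (blue). The intervals of SLC39A10 lie below 0 in all 3 fits, and in the fits of counts SLC39A1 has the widest interval, from -0.38 to 0.18 without a block.

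Transcript use, read from the abundance-weighted length that RSEM gives each gene, differed by 3.03% or less between the group means. The groups did not overlap for 2 of the 10 genes, beside 5.27% of all genes. SLC39A8 transcripts averaged 3189, 3179 and 3201 bases in DMSO and 3208, 3204 and 3213 bases in S767. SLC39A9 transcripts averaged 4066, 4089 and 4096 bases in DMSO and 4109, 4102 and 4110 bases in S767. Both were longer in every S767 library, by 18.4 and 23.5 bases on average (0.578% and 0.575%), beside 2.84% of all genes that were longer without overlap, and the exact permutation test gave p = 0.1 (two-sided) for each, the smallest possible here. The shift of 3.03% was that of SLC39A11, whose groups overlapped.

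The 5 genes whose profile over the 6 libraries was nearest to that of SLC39A10 were ITPRIP, IL1RAP, USF3, SCAF4 and HMMR. Likeness was measured as the root mean square difference of log2 CPM, each gene centered on its own mean, over the 6190 other genes with a mean log2 CPM above 5. The distances were 0.023 to 0.027, whereas the median distance was 0.088 and the own spread of SLC39A10 was 0.067. IL1RAP, the accessory chain of the interleukin-1 receptor, had 129, 136 and 136 CPM in DMSO and 128, 120 and 120 CPM in S767. HMMR, a hyaluronan-binding protein of the mitotic spindle, had 110 to 111 CPM in DMSO and 97.5 to 103 CPM in S767. These genes were chosen for this likeness, which includes the difference between treatments.

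Of the other SLC39 genes, SLC39A13 had 25.7 to 29.1 CPM and a log2 difference of -0.01 ± 0.062, SLC39A5 passed the filter at a low level with 0.30 ± 0.52, and SLC39A2 and SLC39A12 did not pass it. Among the 10 SLC30 exporters 5 passed the filter, and none had a P value under 0.05 without the block. SLC30A1, which exports zinc from the cell and is a target of MTF1, had 66.5, 64.1 and 69.0 CPM in DMSO and 70.2, 65.5 and 68.3 CPM in S767, a difference of 0.03 ± 0.045. SLC30A9, a mitochondrial zinc exporter, had a blocked P value of 0.0291 and an adjusted p of 0.230 in edgeR. MTF1 itself had 31.1 to 39.7 CPM in DMSO and 30.2 to 42.1 CPM in S767, with a difference of -0.00 ± 0.13.

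The metallothioneins had larger log2 differences than any of the 10 SLC39 genes. Of 11 listed, 5 passed the filter, and their log2 differences ran from 0.30 to 0.73 with a median of 0.31. MT2A had 16.1, 12.9 and 11.2 CPM in DMSO and 22.6, 21.0 and 20.2 CPM in S767, without overlap. Its difference was 0.66 ± 0.12, with a P value of 0.000485 and an adjusted p of 0.837 in edgeR, and 0.68 ± 0.054 with the replicate block, with an adjusted p of 0.000114. In the unblocked fit 3 of the 5 had a P value under 0.05 (MT1E, MT1G and MT2A) and 0 passed adjustment. With the block MT1F joined them and these 4 rose, beside 2.16% of all genes, at adjusted p-values of 0.00656 for MT1E, 0.0474 for MT1F and 0.0213 for MT1G. MT1X had 0.33 ± 0.095 in that fit, with an adjusted p of 0.0904. The calls beyond MT2A depended on the fit. With RSEM estimates and the block the adjusted p was 0.120 for MT1F, 0.0566 for MT1G and 0.00190 for MT1X, and without pair 2 only MT2A of the 5 was called, at an adjusted p of 0.0218. The MT1 genes are near-identical copies. STAR's counts leave out fragments that fall on several of them, and RSEM divides such fragments, so the level of each MT1 gene is uncertain.

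Among 4 transporters of iron and manganese, metals that ZIP8 and ZIP14 also carry, differences were larger for TFRC and SLC40A1 than for SLC39A8 or SLC39A14. TFRC, the transferrin receptor through which cells take up iron, had 452, 540 and 582 CPM in DMSO and 770, 893 and 944 CPM in S767. The groups were apart, with a difference of 0.73 ± 0.10 (edgeR P value 7.02e-05, adjusted p 0.377) and, with the block, an adjusted p of 1.14e-08. SLC40A1, which encodes the iron exporter ferroportin, had 3.88, 5.33 and 4.86 CPM in DMSO and 5.16, 7.24 and 7.02 CPM in S767. It was higher in 3 of 3 pairs, by 0.47 ± 0.16 (edgeR P value 0.0177) and with the block at an adjusted p of 0.00146, a call that was lost without pair 2, whereas that of TFRC was kept. SLC11A2, the importer DMT1, differed by 0.00 ± 0.041 and SLC11A1 by 0.22 ± 0.23.

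**Figure D4:**
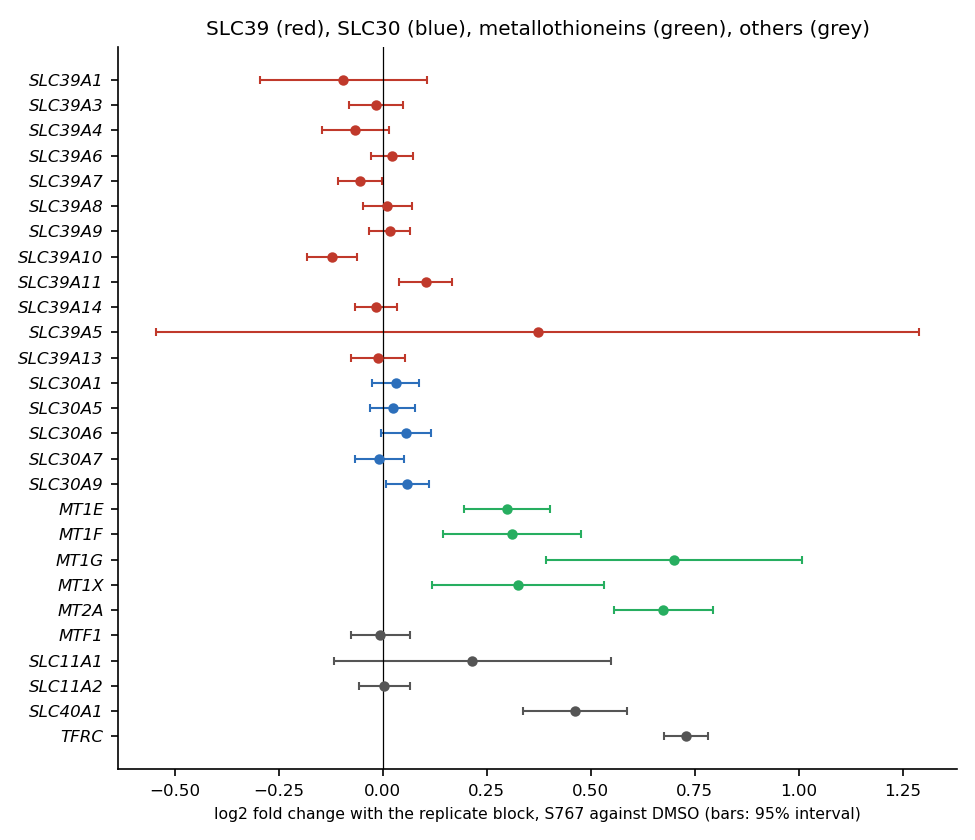
Log2 fold change of S767 against DMSO with the replicate block, with 95% intervals, for the SLC39 genes (red), SLC30 exporters (blue), metallothioneins (green) and MTF1 and iron or manganese transporters (grey) that passed the filter. The SLC39 points of the 10 genes lie between -0.12 and 0.10, while those of the metallothioneins lie between 0.30 and 0.70.

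Between 149994700 and 258029564 fragments per library fell on genes. The cells carried myeloid markers, with 8 of 10 above 1 TPM in every library. ELANE and CD14 were the exceptions. Of the lymphoid markers CD79A and NCAM1 were above 1 TPM and the other 4 at or below it, with summed levels of 38.8 to 43.6 TPM in DMSO and 40.3 to 46.2 TPM in S767, and their part in the SLC39A10 difference was not tested. All 4 erythroid and all 7 epithelial and fibroblast markers were at most 1 TPM.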

How the data were processed

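Poly(A) RNA of the 6 libraries was made into stranded mRNA libraries. Per the labels and methods, the authors trimmed reads with Trimmomatic, aligned them with STAR 2.7.1a to GRCh38 and quantified genes with RSEM 1.2.28 (versions and build from the submitters' processing notes; the methods name another RSEM version). The annotation release is not given in the sources used here. The authors deposited whole-number fragment counts per gene from STAR, unnormalized, for both strands together and for each strand, as well as RSEM expected counts, TPM and abundance-weighted transcript lengths. STAR's counts leave out fragments on several genes or places, which RSEM divides. The 4 lines that name no gene hold 20.3% of fragments and were left out.

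Symbols were matched for 60340 of 60609 identifiers; 58502 occur in GENCODE 29, which gave the positions. Reverse-strand counts were TMM-normalized, filtered with filterByExpr (minimum count 10) and the treatments compared in edgeR 4.0.16 (R 4.3.3, quasi-likelihood test) with Benjamini-Hochberg adjustment over 20725 genes. SE is the log2 fold change over the square root of F, and intervals are 95%. CPM are TMM-scaled. Counting error in the reverse-strand counts of the 10 SLC39 genes is small at this depth, except for SLC39A1. Replicate numbers pair the libraries. Deviations from group means correlated at 0.78, 0.87 and 0.75 within numbers, over 6191 genes. Correlations between numbers were negative, which centering on a mean of 3 libraries brings about on balance once those within numbers are positive. Neither labels nor methods say what a number shares. No 2 libraries were repeats of one another (chi-square per gene 15.5 or more). Scripts were tested on simulated data.

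Alternatives were limma-voom (limma 3.58.1), which the authors used, DESeq2 1.42.0, RLE factors, library size alone, other filters, the block, whole-number rounding of the RSEM estimates, limma on log2(TPM + 1) and log2(TPM + 0.1), unstranded counts and leaving out each library or pair. The genes named are the 10 SLC39 genes, MTF1, SLC30A1, MT2A, list genes with a P value under 0.05 in either fit, and 5 nearest profiles; SLC39A13 and SLC39A5, SLC11A1, SLC11A2 and MT1X are named in addition to complete their lists. The genes and lists were chosen with earlier results of these data known.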

Additional observations from a re-analysis of the deposited data

Results flagged for a closer look

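Scaled to library size, the forward strand, which the comparison does not use, held slightly more SLC39A11 fragments in S767. The counts overlapped before scaling and are so few that counting error is not small. There were 32, 24 and 28 such fragments in DMSO and 39, 32 and 37 in S767, a mean of 0.139 CPM in DMSO and 0.177 CPM in S767, and every S767 library was above every DMSO library in CPM. The same held for 2.08% of the 12542 genes with enough forward fragments, and the forward share of SLC39A11 was 0.290 to 0.453%.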

How the results depend on the processing

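The direction and the side of the threshold stayed the same for 214 of 230 values of the 10 SLC39 genes over 23 alternatives, 6 passed the adjusted threshold in blocked fits and 10 changed sign. SLC39A10 was lower in all 23, from -0.15 to -0.09, with a P value under 0.05 in 22 and an adjusted p under 0.05 in 5. The number of SLC39 genes with a P value under 0.05 was 1 in every fit without the block (SLC39A10, or SLC39A11 without DMSO replicate 2), and 3 with the replicate block, 3 with the block and limma-voom, 3 with the block and library size alone, 4 with the block and RSEM expected counts, and 2 with the block and any 1 pair left out. The number with an adjusted p under 0.05 was 0 without the block, 1 with the block alone, with limma-voom or with library size, 2 without pair 1 (SLC39A10 and SLC39A11), 1 without pair 3, and 0 without pair 2 or with RSEM; with RSEM SLC39A10 lay just above that limit. Of the other zinc and iron genes, edgeR without the block called 0 after adjustment, DESeq2 and the fit with no low count filter each called 2, and the block called 6, or 5 with limma-voom, library size or RSEM and 7, 2 and 5 without pairs 1, 2 and 3. Signs changed only for differences near 0: SLC39A3 was 0.016 without pair 1, SLC39A8 was -0.027 without pair 1, -0.013 on log2(TPM + 1) and -0.014 on log2(TPM + 0.1), and SLC39A9 was -0.0053 and -0.0054 on those scales. Leaving out single libraries gave -0.052 to 0.027 for SLC39A3, -0.040 to 0.052 for SLC39A8 and -0.0048 to 0.042 for SLC39A9. Without a change of sign it gave -0.18 to -0.0078 for SLC39A1, -0.14 to -0.015 for SLC39A4, -0.083 to -0.019 for SLC39A7 and 0.064 to 0.16 for SLC39A11. The cause of these moves was not tested. Counted per kilobase from STAR instead of in TPM, all 10 genes changed rank in DMSO. There SLC39A1 went from rank 5 to 10 and SLC39A3 from 1 to 4, and the other genes kept their order among themselves. In S767 SLC39A8 and SLC39A6 kept their ranks.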
